A study of Mus musculus with 5 samples.

Results

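The genes described here are 9 tight junction genes of the mouse lung: the claudins Cldn3, Cldn4, Cldn5, Cldn7 and Cldn18, occludin (Ocln), tricellulin (Marveld2), zonula occludens 1 (Tjp1) and junctional adhesion molecule A (F11r). They were chosen by name out of 31053 genes counted in every library, with earlier results of these data known, so their counts of calls are descriptions. All 9 were counted in all 5 single-cell libraries of the series, which hold 29500 cells after filtering.

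The study asked how the alveolar epithelium is restored after lipopolysaccharide (LPS) injury when AT2 cells, the surfactant-producing progenitors of the alveolus, lack β1 integrin. β1 AT2-KO mice carried SP-C rtTA, Tet-O-Cre and floxed Itgb1 alleles (labelled Itgb1 iKO), so that doxycycline induced Cre in cells that use the SP-C promoter. Controls were β1 fl/fl littermates with floxed Itgb1 but neither transgene, and both genotypes received doxycycline. All mice were adult. The groups were β1 fl/fl at day 7 after intratracheal LPS, β1 AT2-KO at day 7 after LPS, β1 AT2-KO at day 7 after PBS, β1 fl/fl at day 21 after LPS and β1 AT2-KO at day 21 after LPS. Each group was 1 library of CD45- Ter119- viable lung cells. Per the labels each mouse's cells carried their own hashtag antibody, and 3 hashtags were in use in every library, which were read as 3 mice. The day 21 suspensions had CD326+ cells added. Because all 3 mice of a group shared 1 library, genotype or treatment and library cannot be told apart, and p-values over mice measure only the spread among mice within libraries. Groups of mice are said below not to overlap where their ranges lie apart. The share of all genes that did so was not computed. With 3 against 3 mice, an exact permutation test cannot give a p below 0.1. Lack of overlap is thus a description of a gene and no test.

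Tight junctions seal the space between neighbouring epithelial or endothelial cells. Claudins form the paracellular strands and set which ions pass. Occludin and tricellulin are membrane proteins with a MARVEL domain, and tricellulin sits where 3 cells meet. Tjp1 is the scaffold that ties the strands to actin, and F11r is an immunoglobulin-type adhesion protein of the same junction. In the alveolus Cldn18 is the claudin most associated with lung epithelium, Cldn3 and Cldn4 are the other main alveolar claudins, and Cldn5 is the claudin of endothelium.

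The libraries kept from 2224 to 8671 cells, with medians of 2219 to 5330 UMIs (unique molecular identifiers, 1 per captured transcript) per cell. A single hashtag could be given to 48.5% to 76.8% of cells. Xist, transcribed from the inactive X chromosome, was at 312 CPM (counts per 1000000 UMIs) in the day 7 LPS β1 fl/fl library and 0.112 in the day 7 LPS β1 AT2-KO library, while the summed Y-linked genes were at 0 and 150, so the sex of the mice differed between these libraries. In the day 7 PBS β1 AT2-KO library Xist was at 88.6 and the Y-linked genes at 88.5, and at day 21 they were at 249 and 24.6 in the β1 fl/fl and at 63.1 and 71.9 in the β1 AT2-KO library. The makeup by sex thus moved with every comparison between groups below, and its part in the results was not tested. From 15 to 102 cell barcodes were shared by any pair of libraries. Cells were gated by transcripts that are not among the 9 genes. The AT2 gate (Sftpc at 5% or more of UMIs, at least 1 Epcam UMI and no UMI of Cdh5, Pecam1 or Col1a2) held 119, 355, 26, 176 and 1240 cells in the order of groups given above. The endothelial gate (2 or more UMIs of Cdh5 and Pecam1 together, none of Epcam or Col1a2) held 6508, 4777, 7976, 1187 and 879 cells. In the AT2 gate Lamp3 was at 923 to 1998 CPM and Ptprc at 0 in every library, and in the endothelial gate Ramp2 was at 4510 to 7121. The targeted gene, Itgb1, was at 235, 240 and 318 CPM in AT2 cells of the day 7 β1 fl/fl mice and at 209, 171 and 200 in the β1 AT2-KO mice. At day 21 it was at 347, 321 and 365 against 142, 198 and 148, so the groups did not overlap on either day. The fitted log2 difference of Itgb1 was -0.54 at day 7 (adjusted p = 0.106, edgeR) and -1.22 at day 21 (adjusted p = 7.46e-07, edgeR).

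Positions are given on GRCm38 with the gene models of GENCODE M21. Cldn4 (ENSMUSG00000047501, chr5:134945119-134946934, minus strand) and Cldn3 (ENSMUSG00000070473, chr5:134986214-134987472, plus strand) are neighbours with 39279 bases and no other protein-coding gene between them. Ocln (ENSMUSG00000021638, chr13:100496507-100552718) and Marveld2 (ENSMUSG00000021636, chr13:100595957-100616971) are also neighbours, both on the minus strand, 43238 bases apart. Cldn18 (ENSMUSG00000032473) is at chr9:99689461-99717267 on the minus strand and Cldn5 (ENSMUSG00000041378) at chr16:18776847-18778262 on the plus strand. Cldn7 (ENSMUSG00000018569) is at chr11:69964779-69967885 and F11r (ENSMUSG00000038235) at chr1:171437535-171464603, both on the plus strand. Tjp1 (ENSMUSG00000030516) is at chr7:65296165-65527781 on the minus strand, where the predicted genes Gm44794 and Gm44792 overlap it on the same strand, so its count carries more uncertainty than the others.

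Promoter windows of Cldn4, Cldn3 and Cldn18 are shown because the results below turn on the first and the last, and because Cldn3 is the neighbour of Cldn4. Each runs from 250 bases before to 50 bases after a RefSeq transcript start (GRCm38), 5′ to 3′ on the gene's strand. Capitals mark matches, on either strand, to TGANTCA (the AP-1 motif), AACNNGTT (the grainyhead-like motif) and GGGCGG (the GC box).
Cldn4, chr5:134946885-134947184, minus strand: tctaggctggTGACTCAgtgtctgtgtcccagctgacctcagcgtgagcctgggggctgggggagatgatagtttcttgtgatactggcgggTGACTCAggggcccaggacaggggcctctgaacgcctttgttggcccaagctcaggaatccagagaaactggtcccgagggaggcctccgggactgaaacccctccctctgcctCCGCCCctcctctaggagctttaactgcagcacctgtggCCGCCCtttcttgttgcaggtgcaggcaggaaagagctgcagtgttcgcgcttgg
Cldn3, chr5:134985964-134986263, plus strand: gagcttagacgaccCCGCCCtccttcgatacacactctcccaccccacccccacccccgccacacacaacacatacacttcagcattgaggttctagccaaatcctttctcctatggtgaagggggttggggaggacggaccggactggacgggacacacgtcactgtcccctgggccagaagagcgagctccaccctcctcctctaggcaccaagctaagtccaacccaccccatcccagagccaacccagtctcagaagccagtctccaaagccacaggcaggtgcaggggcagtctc
Cldn18, upstream start, chr9:99717218-99717517, minus strand: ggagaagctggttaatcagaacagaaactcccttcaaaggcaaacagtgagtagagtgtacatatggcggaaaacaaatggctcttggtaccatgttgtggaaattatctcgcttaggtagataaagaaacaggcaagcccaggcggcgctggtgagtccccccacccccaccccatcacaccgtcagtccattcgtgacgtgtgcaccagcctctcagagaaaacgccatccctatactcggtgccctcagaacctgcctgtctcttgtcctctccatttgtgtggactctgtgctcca
Cldn18, downstream start, chr9:99710014-99710313, minus strand: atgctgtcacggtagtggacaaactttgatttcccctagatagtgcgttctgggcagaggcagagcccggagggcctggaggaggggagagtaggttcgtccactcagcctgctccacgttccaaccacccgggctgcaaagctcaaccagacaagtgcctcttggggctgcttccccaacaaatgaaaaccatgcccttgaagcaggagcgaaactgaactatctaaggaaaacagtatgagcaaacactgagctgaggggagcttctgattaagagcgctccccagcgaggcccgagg

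The Cldn4 window held 2 matches to the AP-1 motif, and the Cldn3 window and both Cldn18 windows held 0. Among 32851 RefSeq promoter windows of the same length, 7.81% held at least 1 AP-1 match, 4.2% a grainyhead-like match and 35.7% a GC box. The GC box was found 2 times in the Cldn4 window and 1 time in that of Cldn3, and in neither Cldn18 window. No grainyhead-like match was found in these 4 windows. Among the other members, F11r had 1 AP-1 match and Cldn5 1 grainyhead-like match. A match is a run of letters and was not tested as a binding site. The counts are per gene, so which of the Cldn18 starts was used in these cells was not measured.

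The first comparison asked which cell type carries which junction gene. In AT2 cells the library levels of Cldn3 were 551 to 919 CPM, of Cldn18 738 to 1214 and of Cldn7 211 to 306. In endothelial cells the same genes were at 2.41 to 40.4, 5.41 to 60.8 and 1.06 to 15.1 CPM. Cldn5 was the reverse, at 1306 to 1850 in endothelial cells and 0 to 13.2 in AT2 cells. These ranges do not overlap for any of the 4 claudins. Ocln was at 22.9 to 38.8 in AT2 cells and 58.9 to 72.9 in endothelial cells.

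**Figure D1:**
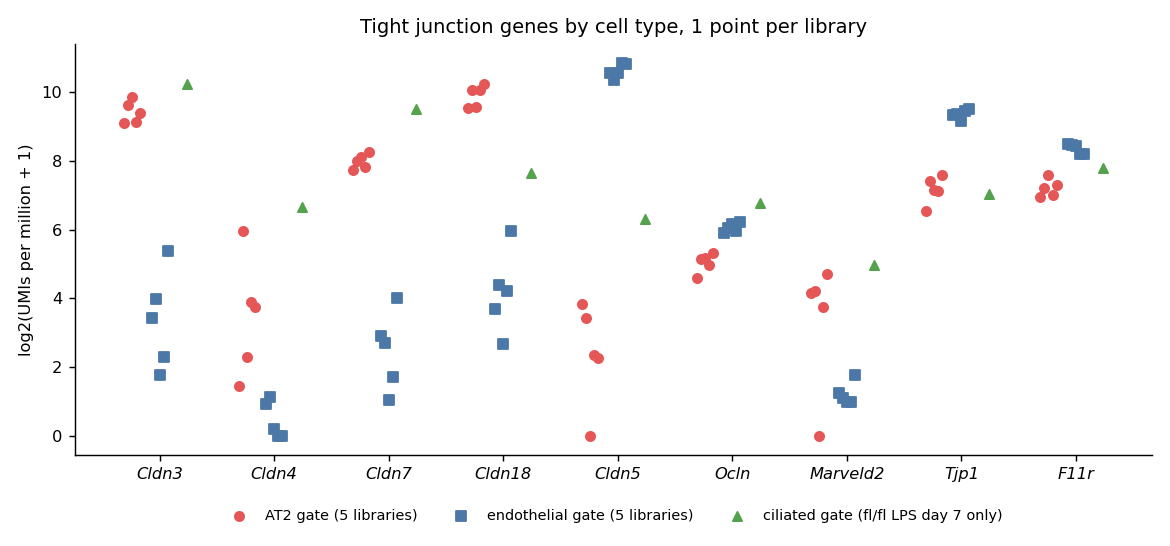
Level of each gene (log2 of CPM + 1) in the AT2 and endothelial gates of the 5 libraries and in the ciliated gate of the day 7 LPS β1 fl/fl library, 1 point per library. Cldn3, Cldn7, Cldn18 and Marveld2 sit higher in AT2 than in endothelial cells, except for the 1 AT2 library with 0 UMIs of Marveld2, and Cldn5, Tjp1, F11r and Ocln sit higher in endothelial cells.

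Summed per mouse and tested with the mouse as a block (edgeR's quasi-likelihood test, 12 mice with at least 10 cells of each type), all 9 genes differed between the cell types. Cldn3 was higher in AT2 cells by 6.48 on the log2 scale (SE 0.211, adjusted p = 3.78e-20), Cldn18 by 6.39 (SE 0.210), Cldn7 by 6.11 (SE 0.186), Cldn4 by 5.37 (SE 0.431) and Marveld2 by 4.17 (SE 0.353). Cldn5 was lower in AT2 cells by a log2 difference of -7.32 (SE 0.211, adjusted p = 3.80e-21), Tjp1 by -1.74 (SE 0.103), F11r by -0.61 (SE 0.094) and Ocln by -0.36 (SE 0.129). Cldn4, Cldn7 and Marveld2 passed the filter on low counts only through AT2 sums, and Cldn5 only through endothelial sums. For these genes the test could call only the direction given. Fitted differences are after scaling between libraries, so they can be smaller or larger than the ratio of CPM. Most genes tested also differed between the cell types, with 34.8% called higher and 37.5% lower in AT2 cells, so the number of members called says little by itself. In the 53 further junction genes listed in the files, 35 could be tested, and 23 were higher and 10 lower in AT2 cells. The adhesion protein Cxadr (5.61), the apical polarity protein Crb3 (6.15) and the epithelial transcription factor Ehf (6.66) were the higher ones with the smallest p. The endothelial adhesion proteins Jam2 (-6.86) and Esam (-2.52) and the multi-PDZ scaffold Mpdz (-6.71) were the lower ones.

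In ciliated cells (4 or more UMIs of Foxj1, Dynlrb2 and Ccdc153 together), only the day 7 LPS β1 fl/fl library gave 10 or more cells in each mouse. Its 162 ciliated cells carried Cldn3 at 1209 CPM, Cldn7 at 724, Cldn18 at 199, Cldn4 at 100 and Marveld2 at 30.1. Cldn7 was at 1160, 684 and 688 in the 3 mice and Cldn4 at 225, 38.3 and 112. The other libraries held 24, 15, 3 and 10 ciliated cells and had no test. The 10 ciliated cells of the day 21 β1 AT2-KO library carried Sftpc at 167050 CPM and Foxj1 at 307, which goes against their gate.

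The main question was whether loss of β1 integrin changed the junction genes of AT2 cells after injury. At day 7 Cldn4 and Cldn18 were higher in β1 AT2-KO AT2 cells. Cldn4, a sealing claudin known to rise in injured alveolar epithelium, was at 0, 0 and 3.99 CPM in the β1 fl/fl mice and 27.8, 47.1 and 71.6 in the β1 AT2-KO mice. The groups did not overlap, but the β1 fl/fl level rests on 2 UMIs in 2 of 119 cells. Over all AT2 cells of each library Cldn4 was at 1.76 (95% Poisson interval 0.214 to 6.37) against 61.7 CPM. The ratio was 35.0 (95% exact interval 9.55 to 291, counting error only).

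Cldn18 was at 720, 737 and 710 CPM in the β1 fl/fl mice (722 ± 13.4, SD, n = 3) and at 1193, 1024 and 1170 in the β1 AT2-KO mice (1129 ± 91.5, SD, n = 3). The groups did not overlap. The fitted log2 difference was 0.55 (SE 0.132, 95% interval 0.28 to 0.82, adjusted p = 0.0188, edgeR). For Cldn4 it was 4.33 (SE 0.906, 95% interval 2.48 to 6.19, adjusted p = 0.00626, edgeR). These were 2 of the 8 members that could be tested, against 0.904% of 6307 genes called higher and 1.24% called lower. Cldn4 had 2, 0 and 0 UMIs in the β1 fl/fl mice and 8, 36 and 24 in the β1 AT2-KO mice. It passed the filter on low counts only through groups where it was higher, so this test could call it only as higher in β1 AT2-KO. Cldn5, at 12.3 to 18.7 in β1 fl/fl and 6.95 to 13.9 in β1 AT2-KO AT2 cells, was below the filter on low counts.

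Both calls could be lost when a mouse was left out. Without β1 fl/fl mouse 1, the one with the 2 Cldn4 UMIs, neither gene passed (adjusted p = 0.0767 for Cldn4 and 0.0841 for Cldn18, edgeR). The log2 difference of Cldn18 was then 0.58, no smaller than with all mice, and that of Cldn4 was 8.51, a fitted value against mice with 0 UMIs that depends on the prior count. Cldn18 also missed the threshold without β1 AT2-KO mouse 1 (adjusted p = 0.0634, edgeR) or mouse 3 (adjusted p = 0.0807, edgeR), with the log2 difference at 0.52 in both, and when only the 2 groups compared were fitted (adjusted p = 0.0782, edgeR). With a stricter hashtag call, at 8 times background, Cldn4 fell below the filter on low counts and Cldn18 missed the threshold (adjusted p = 0.224, edgeR). DESeq2 called Cldn18 (adjusted p = 6.37e-05) and gave no adjusted p for Cldn4.

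The remaining members did not pass at day 7. Cldn3 was at 495, 528 and 608 CPM in the β1 fl/fl mice and 842, 776 and 754 in the β1 AT2-KO mice. The groups did not overlap, and the log2 difference was 0.45 (SE 0.129, 95% interval 0.19 to 0.72, adjusted p = 0.0615, edgeR). Cldn3 passed under 5 alternatives, among them the DESeq2 test (adjusted p = 0.000650). Tjp1 was at 97.7, 86.0 and 74.8 against 118, 119 and 173 CPM (log2 difference 0.54, SE 0.220, adjusted p = 0.273, edgeR). F11r was at 126, 92.1 and 98.2 against 153, 147 and 133 (log2 difference 0.27, SE 0.180). The mice of these groups did not overlap for Tjp1 or F11r either, and the share of all genes without overlap was not computed. Both genes are higher in endothelial cells, and the 7 endothelial markers in the same AT2 sums also lay apart, at 53.8 to 56.1 CPM in β1 fl/fl and 76.5 to 122 in β1 AT2-KO mice, with Cdh5 and Pecam1 at 0 by the gate. The 4 fibroblast markers summed to 4.67 to 18.4 and 20.9 to 39.8 CPM. The part of these transcripts in the Tjp1 and F11r values was not tested.

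Cldn7 was at 199, 123 and 276 CPM in the β1 fl/fl mice and 316, 278 and 263 in the β1 AT2-KO mice (log2 difference 0.39, SE 0.181, adjusted p = 0.368, edgeR), and these groups overlapped. The MARVEL proteins were low. Ocln was at 18.7 to 24.6 against 23.6 to 35.8 CPM, and Marveld2 at 9.35 to 19.9 against 9.81 to 20.9, with overlapping groups and intervals of the log2 difference of -0.38 to 1.20 and -1.55 to 0.60.

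**Figure D2:**
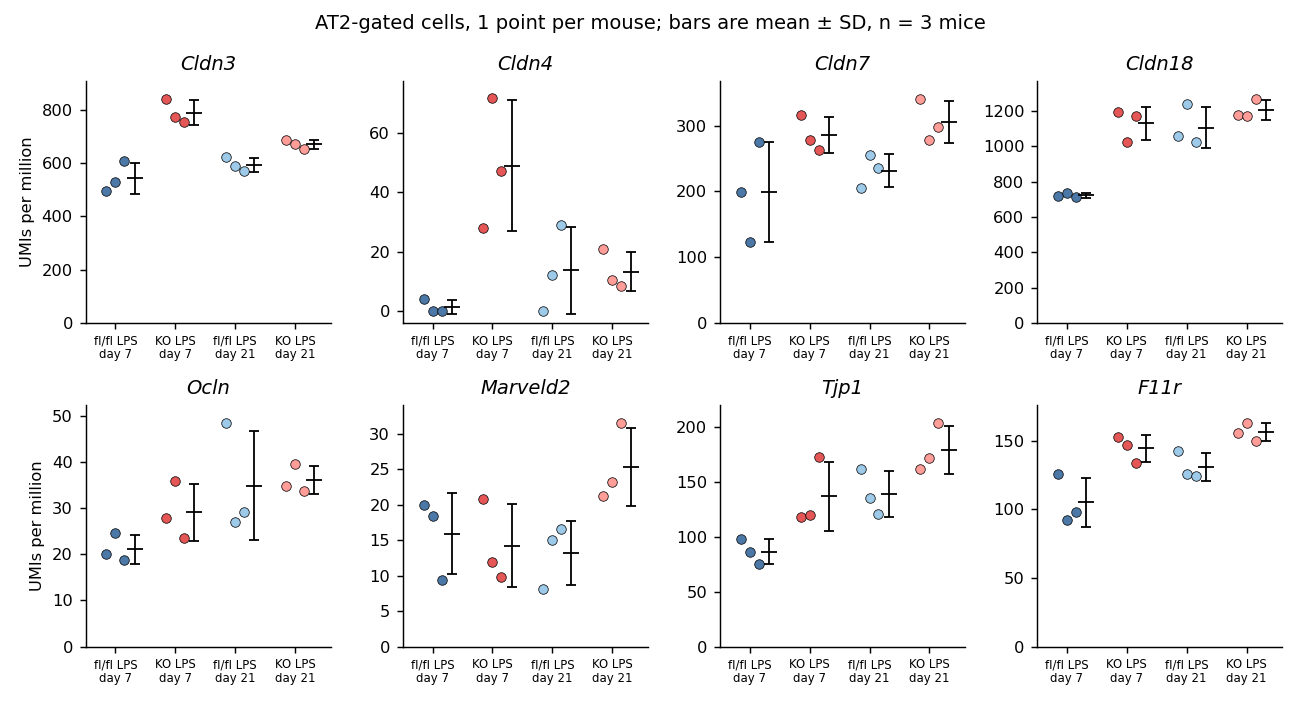
CPM in AT2-gated cells of each mouse for 8 members, by group, with the mean and SD of the 3 mice beside the points. At day 7 the β1 AT2-KO points of Cldn4 (27.8 to 71.6) and Cldn18 (1024 to 1193) lie above those of β1 fl/fl, and at day 21 the groups overlap for both genes.

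Other transcripts moved in the same cells. Of the AT1 markers, Ager was higher in β1 AT2-KO AT2 cells at day 7 (log2 difference 0.82, adjusted p = 0.000748, edgeR), and of the 6 transitional markers Krt7 was higher (0.945, adjusted p = 0.0134, edgeR). The other transitional markers were not called, with log2 differences of 0.63 for Krt19, 0.49 for Krt18 and 0.305 for Krt8, and of -0.49 for Sfn and -0.74 for Cdkn1a. The AT1 markers Ager, Hopx, Pdpn, Aqp5, Rtkn2 and Col4a3 summed to 1300 to 1585 CPM in the 3 β1 fl/fl mice and 2084 to 2876 in the 3 β1 AT2-KO mice, and no marker of this list was at 0 in either library. The 6 transitional markers summed to 940 to 1510 and 1368 to 1637. The part of these states in the Cldn4 and Cldn18 differences was not tested.

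Of the 53 further junction genes, 30 could be tested in AT2 cells at day 7, and 0 were called in either direction by edgeR, with 7 at an unadjusted p under 0.05 and a median log2 difference of 0.13 beside -0.01 over all genes tested. DESeq2 counts for this list were not computed. No gene among the other claudins passed the filter on low counts.

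Few cells carried the Cldn4 signal. After thinning to 2000 UMIs per cell, 32 of 347 β1 AT2-KO AT2 cells at day 7 had a Cldn4 UMI (9.22%, 95% exact interval 6.39 to 12.8), against 1 of 117 in β1 fl/fl (0.855%, interval 0.0216 to 4.67) and 1 of 26 in β1 AT2-KO after PBS (3.85%). Without thinning the shares were 16.1%, 1.68% and 3.85%. In endothelial cells, which should lack the gene, thinned shares were 0.125% in β1 fl/fl and 0.194% in β1 AT2-KO at day 7 after LPS. Median depths in these libraries were 2428.5 and 2490 UMIs in endothelial cells and 8947 and 7615 in AT2 cells. A Cldn18 UMI was found in 81.6% of thinned β1 AT2-KO and 80.3% of thinned β1 fl/fl AT2 cells at day 7.

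Of the day 7 β1 AT2-KO AT2 cells, 146 carried a single hashtag and 209 did not. The hashtagged cells held 68 Cldn4 UMIs in 13 cells, and the others held 107 in 44 cells. The levels were 52.3 CPM (95% Poisson interval 40.6 to 66.3) and 69.7 (57.1 to 84.2), with overlapping intervals. Within mice the 24 UMIs of mouse 3 came from 2 cells and the 36 of mouse 2 from 6.

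In the same library the 32 thinned Cldn4-positive cells and the 315 negative ones were set side by side, with 1 library and no test. Sfn, a cell-cycle inhibitor raised in transitional AT2 cells, was at 453 CPM (95% Poisson interval 303 to 651) in positive and 216 (181 to 255) in negative cells. Krt8 was at 484 (329 to 688) and 329 (285 to 377), and Cldn3 at 984 (756 to 1259) and 744 (679 to 815). Cldn18 was at 984 (756 to 1259) and 1059 (980 to 1142), and Ager at 1344 and 1364. Sfn was thus the one of these 5 genes whose intervals did not overlap between positive and negative cells. The 5 genes are part of a longer list of members and markers set side by side, and the rest is not given. The intervals pool cells and do not measure the spread among mice, in which 3, 4 and 2 positive cells carried a single hashtag.

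A test of positive against negative cells needed 10 cells of each kind in a mouse, which no mouse reached after thinning. Without thinning, 2 mice of the day 21 β1 AT2-KO library did, leaving 1 residual degree of freedom. Depth then helps to set which cells count as positive, since a deeper cell is likelier to show a Cldn4 UMI. Of 7970 genes tested, 4 (0.0502%) were higher and 3 (0.0376%) lower in Cldn4-positive cells, and none was a tight junction gene. The higher ones with the largest rise were Il4i1 (2.36), C2cd4b (1.26) and Thbs1 (1.20), the last a matricellular protein, and the lower ones were Ifi27l2a (-2.99), Scgb1a1 (-1.05) and Lrp2 (-1.03).

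The AT2 cells of the β1 AT2-KO mice given PBS numbered 26, of which 9 carried a single hashtag, so that group entered no test. These 26 AT2 cells held 1 Cldn4 UMI (3.89 CPM, 95% Poisson interval 0.0986 to 21.7). AT2 cells of the same genotype were at 61.7 CPM after LPS, a ratio of 15.9 (95% exact interval 2.81 to 630). Cldn18 was at 755 CPM after PBS and 1060 after LPS (ratio 1.40, interval 1.21 to 1.63). Cldn3 was at 919 and 790 (ratio 0.859, interval 0.751 to 0.987), and the intervals for Cldn7, Ocln, Tjp1 and F11r included 1. Marveld2 and Cldn5 had 0 UMIs after PBS, which at up to 3 counts allows 11.7 CPM (upper limit of the 95% Poisson interval 14.4). Each arm here was 1 library, and the intervals cover counting error only.

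At day 21 none of the 8 tested members was called between the genotypes in AT2 cells, against 1.63% of genes called higher and 2.74% lower. At an unadjusted p under 0.05 there was 1 member, Marveld2, and DESeq2 also called 0. Cldn4 was at 0, 12.005 and 29.0 CPM in the β1 fl/fl mice and 20.7, 10.5 and 8.35 in the β1 AT2-KO mice, with overlapping groups (log2 difference -0.53, 95% interval -1.59 to 0.52, edgeR). Cldn18 was at 1056, 1240 and 1022 against 1175, 1171 and 1267, also overlapping, and its log2 difference was 0.00 with a 95% interval of -0.25 to 0.25.

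Marveld2 was at 8.08, 15.006 and 16.6 CPM in the day 21 β1 fl/fl mice and 21.2, 23.2 and 31.6 in the β1 AT2-KO mice. These groups did not overlap (log2 difference 0.77, 95% interval 0.075 to 1.46, adjusted p = 0.226, edgeR). Cldn3 was at 571 to 622 against 654 to 687, Cldn7 at 205 to 255 against 278 to 341 and F11r at 124.5 to 143 against 150 to 163, each without overlap in CPM and each with an interval of the normalised log2 difference that included 0. The share of all genes without overlap was not computed at day 21 either. Tjp1 at 120 to 162 against 162 to 204 met at their ends, and Ocln at 27.0 to 48.5 against 33.8 to 39.5 overlapped. Markers of other states moved in the same AT2 cells. The 6 transitional markers summed to 590 to 987 CPM in the day 21 β1 fl/fl mice and 1173 to 1211 in the β1 AT2-KO mice, and of these Sfn (log2 difference 0.94, adjusted p = 0.0117, edgeR) and Krt7 (0.67, adjusted p = 0.0362, edgeR) were called higher. The other 4 were not called, with log2 differences from -0.89 for Krt19 to 0.42 for Krt8, and no marker of this list was at 0 in either library. The 8 AT2 markers summed to 301640 to 312670 against 275580 to 278390 and the club cell markers to 105 to 194 against 247 to 451, also without overlap, while the 6 AT1 markers overlapped at 1742 to 1858 against 1700 to 1863. The part of these states in the Marveld2, Cldn3, Cldn7 and F11r values was not tested.

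**Figure D3:**
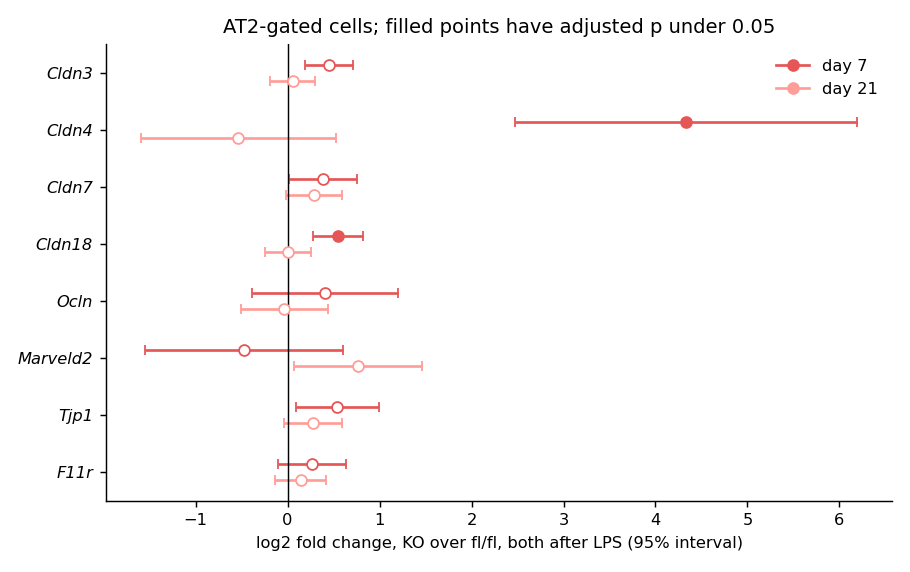
Fitted log2 fold change of β1 AT2-KO over β1 fl/fl in AT2-gated cells at days 7 and 21 after LPS, with 95% intervals, for the 8 members tested; filled points passed an adjusted p of 0.05. Only Cldn4 (4.33) and Cldn18 (0.55) at day 7 are filled.

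The difference between the genotype effects at the 2 times was itself tested. For Cldn4 the day 21 effect was lower than the day 7 effect by a log2 difference of -4.87 (SE 1.12, adjusted p = 0.0253, edgeR), where 0.603% of genes were called in the positive and 0.381% in the negative direction. This rests on the same 2 UMIs at day 7. Cldn4 passed the filter on low counts only through the other groups, so the day 7 effect within this difference could only be positive. The call was lost without day 21 β1 fl/fl mouse 3 (log2 difference -3.31, adjusted p = 0.452), the one with 21 of the group's 25 tagged Cldn4 UMIs, and with doublets removed (-3.64, adjusted p = 0.176). It was also lost without day 7 β1 fl/fl mouse 2 (-4.59, adjusted p = 0.0519) or 3 (-4.46, adjusted p = 0.0594), or day 7 β1 AT2-KO mouse 2 (-4.48, adjusted p = 0.0771) or 3 (-4.93, adjusted p = 0.0503), with values close to that of all mice. Without day 7 β1 fl/fl mouse 1, which leaves 0 Cldn4 UMIs in that group, the fitted value was -9.04 (adjusted p = 0.0957). In the same test the AT1 marker Ager was lower (-0.87, adjusted p = 0.0189, edgeR) and the transitional marker Sfn higher (1.43, adjusted p = 0.0189, edgeR), and their part in the Cldn4 difference was not tested. For Cldn18 the difference of effects was -0.54 (SE 0.179, 95% interval -0.91 to -0.18, adjusted p = 0.190, edgeR), so by this test the effect on Cldn18 was not shown to differ between days. DESeq2 called this difference for Cldn18 (adjusted p = 0.00337) and for Cldn3 (adjusted p = 0.0277). The EPCAM enrichment was made at day 21 and not at day 7, and day and enrichment cannot be told apart.

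The direction of the Cldn4 difference depended on whether cells low in Sftpc were counted. With an Sftpc minimum of 2% of UMIs, all 33 fold changes of the members recomputed kept their direction and side of the threshold. At 10% the 30 that were recomputed did too. The highest Cldn4 levels lay outside the AT2 gate, in Epcam-positive cells with Sftpc below 5% of UMIs. At day 7 after LPS there were 43 such cells in β1 fl/fl and 44 in β1 AT2-KO. Cldn4 was at 1444 CPM (95% Poisson interval 1329 to 1567) in the former and 697 (599 to 807) in the latter, a β1 AT2-KO to β1 fl/fl ratio of 0.483 (95% exact interval 0.406 to 0.572). All levels and ratios of these cells pool the cells of 1 library per group. Their intervals cover counting error only and do not measure the spread among mice, and no test was run. A single cell held 31.1% and 30% of these UMIs. In β1 AT2-KO after PBS, 4 such cells held 101 Cldn4 UMIs (1969 CPM, interval 1604 to 2393), 83.2% of them in 1 cell, beside the 1 UMI in the AT2 gate. Cldn18 went the other way in these cells, at 938 (845 to 1038) and 2359 (2176 to 2555), a ratio of 2.52 (2.21 to 2.87). Tjp1 was also higher in β1 AT2-KO (ratio 2.68, interval 1.89 to 3.83), and Cldn3 was close (ratio 1.02, interval 0.860 to 1.21).

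These cells were not of 1 kind. The club cell secretory gene Scgb1a1 took 303140 CPM in the β1 fl/fl cells and 90947 in the β1 AT2-KO cells, and the AT1 marker Ager was at 820 and 1755. Sftpc was at 868 and 9031. The part of this makeup in the Cldn4 and Cldn18 values was not tested. With all Epcam-positive cells in 1 gate, with no Sftpc minimum, Cldn4 per mouse was at 13.8, 593 and 189 CPM in day 7 β1 fl/fl and 85.3, 84.9 and 180 in β1 AT2-KO. These groups overlapped, and the lowest and the highest mouse were both β1 fl/fl. The fitted log2 difference became -0.86 (adjusted p = 0.609, edgeR), an alternative chosen after seeing the data. Cldn18 kept its direction at 0.45 (adjusted p = 0.0947, edgeR).

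**Figure D4:**
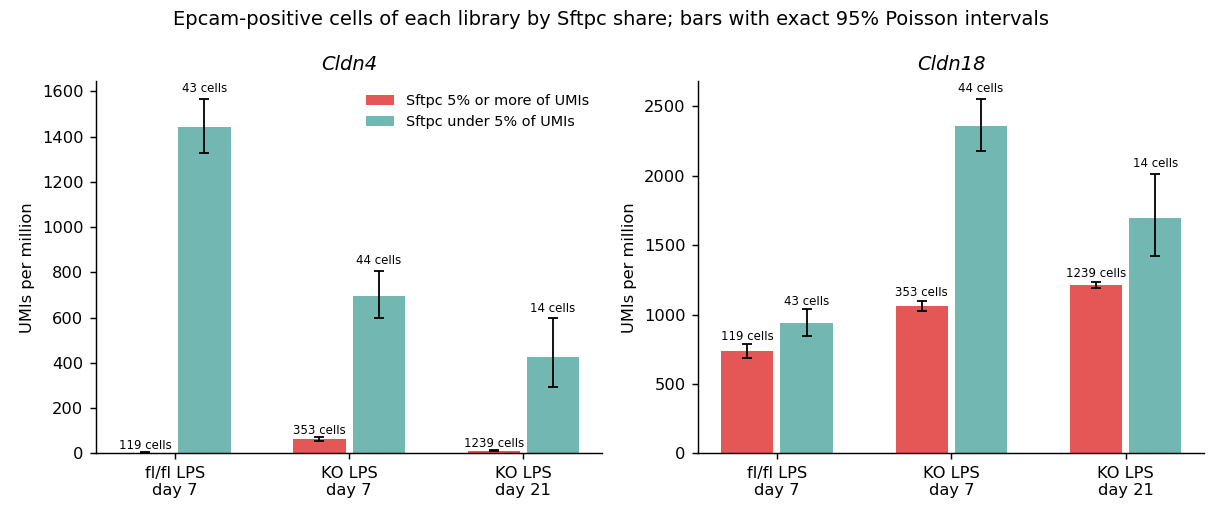
Cldn4 and Cldn18 in Epcam-positive cells outside the ciliated gate, split at 5% Sftpc, in 3 libraries, as CPM with exact 95% Poisson intervals and the number of cells over each bar. Below 5% Sftpc, pooled Cldn4 is higher in β1 fl/fl (1444) than in β1 AT2-KO (697) at day 7, while above it the pooled order is reversed (1.76 and 62.3). The intervals cover counting error only, and the spread among mice is not shown.

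In endothelial cells the question was whether the junction genes of the vessel wall differed between genotypes or with LPS, although Cre was not directed to these cells. Cldn5 at day 7 was at 1442, 1515 and 1428 CPM in β1 fl/fl and 1262, 1232 and 1386 in β1 AT2-KO mice, without overlap, and the log2 difference of -0.19 (SE 0.095, 95% interval -0.394 to 0.005) was not called (adjusted p = 0.368, edgeR). Tjp1 had an interval of -0.18 to 0.19 and F11r of -0.205 to 0.146. None of the 7 members tested was called at day 7, 0 were at an unadjusted p under 0.05 and DESeq2 called 0, against 1.91% of genes called higher and 0.85% lower. Of 26 further junction genes 1 was higher, the kinase Rock1, which acts on junctional actomyosin, by 0.70 (SE 0.088, adjusted p = 8.31e-05, edgeR). In the same sums the 4 fibroblast markers were at 38.5 to 61.5 CPM in β1 fl/fl and 73.5 to 82.7 in β1 AT2-KO mice. The ciliated markers were at 25.5 to 36.9 against 4.07 to 8.95, and the 6 transitional markers at 387 to 475 against 204 to 287. The 8 AT2 markers overlapped at 1866 to 4224 against 3258.5 to 4546.5, as did the 7 endothelial markers. The part of these transcripts in the Cldn5 and Rock1 values was not tested.

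At day 21 Cldn5 was at 1486, 1636 and 1882 against 1702, 1531 and 1870 CPM, with overlapping groups and a log2 difference of 0.02 (95% interval -0.18 to 0.23). Cldn3, an epithelial claudin, was the 1 member called, at 6.97, 6.10 and 0 in β1 fl/fl and 39.6, 28.8 and 32.9 in β1 AT2-KO mice (log2 difference 3.05, SE 0.555, adjusted p = 0.0122, edgeR). Its β1 fl/fl values rest on 4, 3 and 0 UMIs. Cldn7 followed at 2.24 (adjusted p = 0.217) and Cldn18 at 1.24 (adjusted p = 0.456). The background was 0.272% of genes called higher and 0.272% lower. Of the further junction genes Afdn, the nectin-linked scaffold afadin, was higher by 0.47 (SE 0.098, adjusted p = 0.0341, edgeR). Without β1 AT2-KO mouse 3 the Cldn3 call was lost, with a log2 difference of 3.06 (adjusted p = 0.0611, edgeR). It was also lost with the hashtag call at 8 times background (2.96, adjusted p = 0.108, edgeR). DESeq2 gave no adjusted p for Cldn3.

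The AT2 transcript Sftpc moved with these claudins. In endothelial cells it was at 4473, 2272 and 2356 CPM in the day 21 β1 fl/fl mice and 14511, 16855 and 14488 in the β1 AT2-KO mice, whose library held more AT2 cells (1240 against 176). Per 1000 Sftpc UMIs the endothelial cells held 2.63 Cldn3 UMIs in the β1 AT2-KO library, beside 3.29 in its AT2 cells, and 1.35 in the β1 fl/fl library, beside 2.45. For Cldn18 the figures were 3.97 beside 5.90 and 5.97 beside 4.64. All 8 AT2 markers, none at 0 in any library, summed to 2931 to 6295 CPM in the endothelial cells of the day 21 β1 fl/fl mice and 18175 to 20648 in those of the β1 AT2-KO mice. The part of free AT2 RNA in the endothelial claudin values was not tested.

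**Figure D5:**
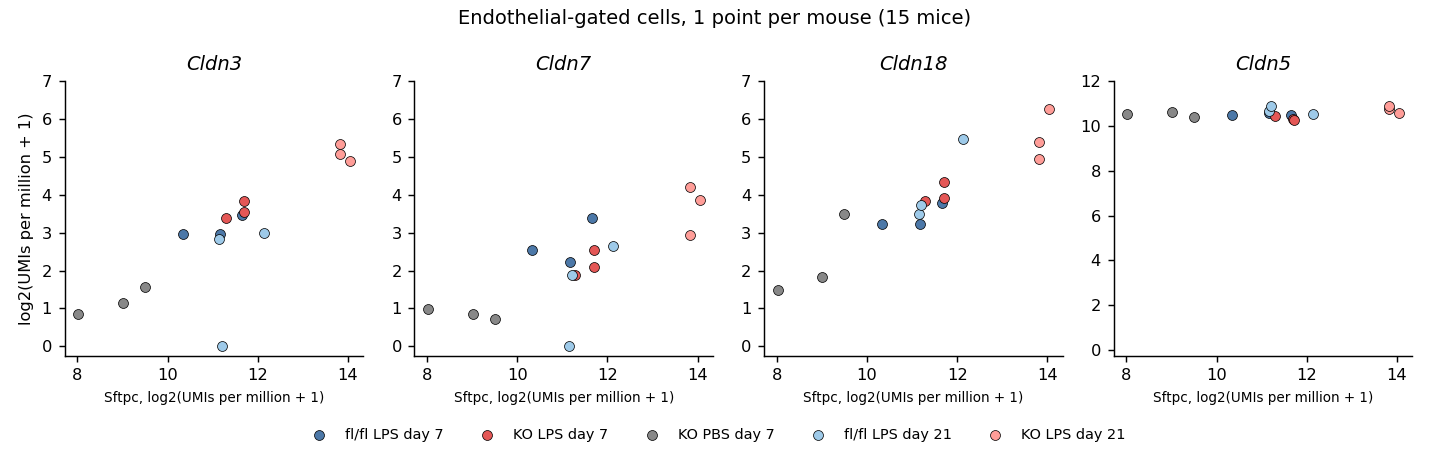
Cldn3, Cldn7, Cldn18 and Cldn5 in endothelial-gated cells against Sftpc in the same cells, both as log2 of CPM + 1, 1 point per mouse (15 mice). Where Sftpc is lowest, in the β1 AT2-KO PBS mice, Cldn3 is at 0.798 to 1.96 CPM, and where Sftpc is highest, in the β1 AT2-KO day 21 mice, it is at 28.8 to 39.6, while Cldn5 stays between 1232 and 1882 CPM in all mice.

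LPS against PBS could be compared in β1 AT2-KO endothelium at day 7. Cldn5 was lower after LPS, at 1262, 1232 and 1386 CPM against 1353, 1463 and 1563 (log2 difference -0.27, SE 0.095, adjusted p = 0.0435, edgeR). The groups overlapped, and the call was lost under 9 alternatives, with log2 differences of -0.28 to -0.23. Among them were the DESeq2 size factors (adjusted p = 0.0609) and leaving out PBS mouse 2 (adjusted p = 0.0951) or 3 (adjusted p = 0.144) or LPS mouse 1 (adjusted p = 0.124) or 2 (adjusted p = 0.155). The DESeq2 test kept the call (-0.25, adjusted p = 0.0275). In the same sums the 7 endothelial markers together were also lower, at 11252 to 12670 CPM after LPS against 15177 to 16329 after PBS, and the 4 fibroblast markers were at 73.5 to 82.7 against 12.2 to 16.0. Their part in the Cldn5 difference was not tested. Tjp1 at 606 to 700 against 527 to 615, Ocln at 58.5 to 69.4 against 64.6 to 77.5 and F11r at 323 to 375 against 316 to 359 were not called. Cldn3 (2.91), Cldn7 (2.01) and Cldn18 (1.502) were higher after LPS, at adjusted p = 1.74e-05, 0.00819 and 0.0224 (edgeR). In the PBS mice Cldn3 held 12, 4 and 6 UMIs and Cldn7 held 4, 5 and 4. Cldn3 and Cldn7 passed the filter on low counts only through other groups, so this test could call them only as higher after LPS. The Cldn18 call was lost with only the groups compared (adjusted p = 0.0626), with doublets removed (adjusted p = 0.106) and without LPS mouse 2 (adjusted p = 0.0765) or PBS mouse 2 (adjusted p = 0.0921) or 3 (adjusted p = 0.0942), with log2 differences of 1.12 to 1.51. Sftpc in the same mice was at 2503 to 3338 CPM after LPS and 259 to 721 after PBS. Per 1000 Sftpc UMIs, endothelial Cldn3 was at 3.65 after LPS and 3.31 after PBS, beside 3.83 and 3.75 in AT2 cells. Cldn7 was at 1.33 and 1.46, beside 1.24 and 1.13. Cldn18 was at 4.91 after LPS, beside 5.14 in AT2 cells, and at 7.41 after PBS, beside 3.09. These 4 calls stand against a background of 14.1% of genes called higher and 11.6% lower.

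Among the 26 further junction genes tested in this comparison 8 were higher and 2 lower. The higher ones with the smallest p were Cxadr (4.65), the polarity protein Crb3 (2.73) and the scaffold Cgnl1 (0.98). The lower ones were the endothelial adhesion molecule Esam (-0.59, SE 0.094, adjusted p = 1.24e-04, edgeR) and Arhgef2 (-0.26, SE 0.086, adjusted p = 0.0335). In the test of AT2 against endothelial cells above, Cxadr and Crb3 were 5.61 and 6.15 higher on the log2 scale in AT2 cells, while Esam was lower by a difference of -2.52. In endothelium 0 members were called in the difference of genotype effects between days, against 0.34% of genes in the positive and 0.586% in the negative direction. The smallest adjusted p among them was 0.0678, of Cldn3 (log2 difference 2.58, SE 0.653, edgeR), with 2 members at an unadjusted p under 0.05 and 1 called by DESeq2.

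The genes most alike to Cldn4 and Cldn18 in AT2 cells were ranked by Pearson correlation of log2(CPM + 1) over the 12 mice with AT2 sums, among genes with a mean of 50 or more (2568 genes ranked). For Cldn4 they were Hmgn1 (r = 0.858), Arhgap31 (0.851) and Krt18 (0.847), and for Cldn18 Ddah2 (0.942), Ece1 (0.942) and Dag1 (0.918). These 12 mice come from 4 libraries, so mice of a library share its depth and its gates, and no p is given.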

How the data were processed

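The 5 droplet single-cell libraries, 1 per group, were analysed from the UMI counts per gene and cell that the authors deposited. The authors made these counts with Cell Ranger 3.1 on mm10 (the submitters' processing notes also name Seurat 4.1.0), and their later removal of free RNA and doublets is not in the deposited counts. Cells with 700 or more genes and 0.1% to 15% mitochondrial UMIs were kept, and a mouse was assigned where 1 hashtag stood 4 times over background. Cells with more than 1 hashtag were left out of mouse sums, and no doublet caller was used except as an alternative.

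UMIs of each gate were summed per mouse (10 or more cells) and tested with edgeR 4.0.16 in R 4.3.3 (TMM scaling, filterByExpr, quasi-likelihood test, Benjamini-Hochberg adjustment over all genes tested, threshold 0.05), with all groups of a cell type in 1 fit. CPM values (counts per 1000000 UMIs) are unscaled sums. Intervals are exact 95% Poisson or binomial, and cover counting error only. A count of 0 was read as allowing up to 3 counts. Depth was 8360954 to 29128331 UMIs per library. On simulated counts with 200 genes changed by 1 on the log2 scale, the genotype test recovered 100 in AT2 cells at day 7 (7 false calls, 6200 genes) and 158 at day 21 (10 false calls, 6059 genes), and in endothelial cells 198 (10 false calls, 11531 genes) and 124 (4 false calls, 11535 genes). Ensembl IDs matched GENCODE M21 for 99.6% of genes, and 9 of 9 members had a RefSeq promoter.

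Alternatives were DESeq2 1.42.0 size factors and test, no filter, other gates, cell filters and hashtag calls, doublets removed, and each mouse left out. The genes named were the 9 members, the 3 called genes of smallest p per direction in the further lists, the 3 most correlated genes, and the 3 largest changes by Cldn4 status. The members and lists were chosen with earlier results of these data known. A result among the further lists at day 21 is not reported here.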

Additional observations from a re-analysis of the deposited data

Results flagged for a closer look

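The genotype effect on Cldn4 in AT2 cells was called different between the 2 times after LPS. The difference of the log2 effects, day 21 minus day 7, was -4.87 (SE 1.12, adjusted p = 0.0253, edgeR's interaction test). Cldn4 was higher in all 3 β1 AT2-KO mice than in any β1 fl/fl mouse at day 7, and the groups overlapped at day 21. The β1 fl/fl level at day 7 rests on 2 UMIs. Cldn4 passed the filter on low counts only through the other groups, so the day 7 effect could only be positive. The call was lost with doublets removed (-3.64, adjusted p = 0.176, edgeR) and without any 1 of 6 mice (adjusted p = 0.0503 to 0.452, edgeR), and with no Sftpc minimum the value was 0.79 (adjusted p = 0.884, edgeR). CD326+ cells were added at day 21 and not at day 7, so day and enrichment cannot be told apart.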

How the results depend on the processing

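Of 1087 fold changes recomputed under alternatives, 1002 kept their direction and side of the threshold, and for AT2 against endothelial cells all 9 members stayed called under every alternative run. For AT2 cells at day 7, members called were 1 with only the groups compared, 0 with the 8-fold hashtag call and 0 with no Sftpc minimum (an alternative chosen after seeing the data), and 0 to 3 with a mouse left out. Genes called were 206 with no filter, 48 with the 8-fold hashtag call and 84 with no Sftpc minimum, and 48 to 139 with a mouse left out, against 135 in all. With no Sftpc minimum Cldn4 was -0.86 and Cldn7 -0.09.

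At day 21 in AT2 cells Cldn4 was 0.64 with doublets removed and -1.01 to 1.02 with a mouse left out. Cldn18 was 0.00 under DESeq2, with 1000 or more genes per cell and with doublets removed, -0.02 with the 8-fold hashtag call, and -0.06 to 0.10 with a mouse left out. Ocln was 0.03 with no filter, 0.00 with 1000 or more genes, 0.16 with the 2-fold hashtag call and -0.23 to 0.22 with a mouse left out. Genes called were 85 to 228 with a mouse left out. For the difference between days, members called were 2 with DESeq2, 0 with doublets removed, 0 with the 8-fold hashtag call, 0 with no Sftpc minimum and 0 to 1 with a mouse left out, and genes called were 105 with no filter, 37 with no Sftpc minimum and 26 to 65 with a mouse left out. With no Sftpc minimum Cldn4 was 0.79, Cldn7 0.39 and F11r 0.05; Cldn7 was 0.02 with the 2-fold hashtag call and -0.28 to 0.05 with a mouse left out.

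In endothelial cells at day 7, genes called were 730 with no filter and 161 to 322 with a mouse left out. Tjp1 was -0.01 with no filter, -0.02 with 1000 or more genes and -0.05 to 0.07 with a mouse left out, and F11r -0.07 to 0.04. At day 21, members called were 2 with no filter, 0 with DESeq2, 0 with the 8-fold hashtag call and 0 to 1 with a mouse left out. Genes called were 259 with no filter, 160 with DESeq2, 101 with only the groups compared and 27 to 61 with a mouse left out. Cldn5 was 0.00 with doublets removed and with the 8-fold hashtag call, and -0.06 to 0.12 with a mouse left out. Tjp1 was -0.03 with the 8-fold hashtag call and -0.03 to 0.07 with a mouse left out, and F11r -0.01 to 0.13. For the difference between days, members called were 2 with no filter and 1 with DESeq2. Genes called were 368 with no filter, 201 with DESeq2, 46 with 1000 or more genes, 62 with the 2-fold hashtag call and 39 to 105 with a mouse left out. With the 8-fold hashtag call Ocln was -0.08 and Tjp1 -0.03, and Tjp1 was -0.05 to 0.07 with a mouse left out. For LPS against PBS, members called were 2 with only the groups compared and 2 to 4 with a mouse left out, and F11r was -0.09 to 0.03. The cause of these changes was not tested.

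No paired analysis was possible because, between groups, no label ties mice of one library to those of another; only AT2 against endothelial cells and Cldn4-positive against negative cells, within mice, had the mouse as a block. The test of Cldn4-positive cells could not be fitted with a mouse left out, and called 7 genes higher and 5 lower with no filter. AT2 depth in β1 AT2-KO mice given PBS, 26 cells, limits that group.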
